A study of Mus musculus with 6 samples.

Results

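The genes described here are 49 regulators of the cell division cycle and of the p53 response, picked by name: cyclins, cyclin-dependent kinases (CDKs) and their inhibitors, the E2F and Rb families, mitotic kinases and spindle checkpoint genes, and p53 with its partners. Of these, 48 have at least 1 row among the 33142 probe sets of the larger table, which names 15357 genes. Cdkn2d was not analysed here. RNA came from undifferentiated mouse embryonic stem cells (mESCs) at passage 8 and day 0, hybridized to 3 arrays for the WT and 3 arrays for the Alkbh1-/- genotype, both of C57BL/6 background. The cells were not treated, and were cultured with leukemia inhibitory factor on irradiated feeder fibroblasts. The WT and Alkbh1-/- lines came from littermate embryos, and the sample descriptions carry a single code for each genotype, so that an effect of the genotype and a difference between these lines cannot be told apart. Array-by-array values were not analysed. The values are the authors' means, over all arrays or within a genotype, and are given without an error or a test, since the statistics of the authors' own comparison were not used.

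A cell that divides passes a restriction point in G1. Cyclin D with CDK4 or CDK6, and then cyclin E with CDK2, phosphorylate the Rb proteins and release E2F transcription factors, which switch on the genes of DNA replication. Cyclin B with CDK1 then drives mitosis, the spindle checkpoint holds the anaphase-promoting complex until the chromosomes are attached, and p53 can stop the cycle through the CDK inhibitor p21, the product of Cdkn1a. Embryonic stem cells are known for a short G1 phase with highly active cyclin E and CDK2.

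The targeted gene was looked at first. At the probe set 1434660_at, the authors' geometric mean intensity of Alkbh1 was 761 in WT and 25.7 in Alkbh1-/- mESCs, a log2 ratio of -4.89. At its other probe set, 1438681_at, the means were 120 and 34.6 (log2 ratio -1.79). Both are lower in the group labelled Alkbh1-/-. Among defining markers of the cell type, all 8 pluripotency genes examined lay above the upper quartile of all probe sets, with mean log2 levels from 10.05 to 14.49, and 6 of 7 genes of early differentiation lay below the median. Of 15 genes of feeder fibroblasts, 14 reached that median, against 62.0% of all genes, and which cells their transcripts came from was not tested.

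Levels over all arrays were examined for all 48 genes. A level is the mean log2 value of a probe set, and it depends on how well the probes bind as well as on the transcript, so levels are placed only within the range of the array, from 3.22 to 14.67 with a median of 6.31 and an upper quartile of 8.38. Where probe sets share a gene, the brightest stands for it. The median over the 48 genes was 9.79, against 7.30 over all 15357 genes. Of the 48 genes, 43 reached the median of the array and 36 reached its upper quartile. Over all genes, these shares were 62.0% and 35.5%. The 5 genes below the median were Cdkn2a, Cdkn2c, Rbl2, E2f2 and E2f4.

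**Figure D1:**
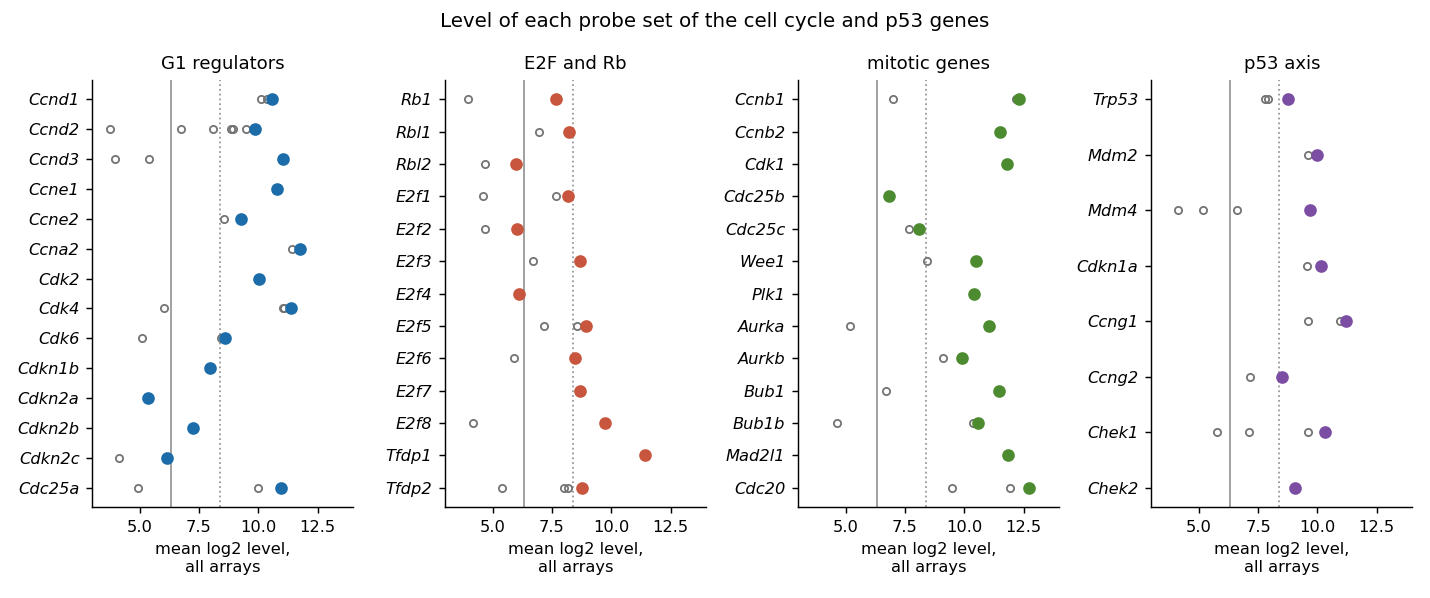
Mean log2 level over all arrays for each of the 108 probe sets of the 48 genes, in 4 groups by role. Filled points are the brightest probe set of a gene and open points its others, the solid line is the median of all probe sets (6.31) and the dotted line their upper quartile (8.38). By their brightest probe set, all 13 mitotic genes and all 8 genes of the p53 axis lie to the right of the median. By the same measure, Cdkn2a, Cdkn2c, Rbl2, E2f2 and E2f4 lie to the left of it. Of the 108 probe sets, 25 lie below the median, and 14 genes have probe sets on both sides of it.

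Of the 14 G1 regulators with a row, 12 reached the median of all probe sets and 10 the upper quartile. All 3 D-type cyclins, which respond to growth signals, had bright probe sets, with mean log2 levels of 10.59 for Ccnd1, 9.85 for Ccnd2 and 11.03 for Ccnd3. Ccne1, which encodes cyclin E1 and activates CDK2 at the entry to S phase, was at 10.77, and Ccna2, the cyclin of S phase and G2, at 11.76. The kinase genes Cdk4 and Cdk2 were at 11.36 and 10.04, and Cdk6 was at 8.60. Cdc25a, the phosphatase that removes inhibitory phosphates from CDK2, was at 10.96. The CDK inhibitor genes of this group follow, and Cdkn1a is given with the p53 axis. Cdkn1b, which encodes p27, was at 7.97 and Cdkn2b, which encodes p15, was at 7.24. Cdkn2c, which encodes p18, was at 6.17. Cdkn2a, whose locus encodes p16 and ARF, was at 5.35, with 35.3% of all probe sets below it.

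Of the 13 E2F and Rb genes, 10 reached the median of all probe sets and 7 the upper quartile, with a median level of 8.45. Tfdp1, the DNA-binding partner of most E2F proteins, was at 11.43 and its relative Tfdp2 at 8.75. Among the activators, E2f1, E2f2 and E2f3 were at 8.18, 6.02 and 8.69. E2f4 and E2f5, which act mainly with the Rb relatives to repress, were at 6.12 and 8.93, and E2f6, a repressor that needs no Rb protein, was at 8.45. The atypical repressors E2f7 and E2f8 were at 8.69 and 9.73. The Rb family itself had levels of 7.67 for Rb1, 8.21 for Rbl1, which encodes p107, and 5.98 for Rbl2, which encodes p130. Several of these genes have probe sets far apart: E2f8 has a further one at 4.18, and E2f1 one at 4.59.

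All 13 mitotic genes reached the median of all probe sets, and 11 the upper quartile, with a median level of 11.04. Cdc20, an activator of the anaphase-promoting complex, had the brightest probe set of all 48 genes, at 12.70. The mitotic cyclins Ccnb1 and Ccnb2 were at 12.30 and 11.49, their kinase Cdk1 at 11.79, and Wee1, which inhibits CDK1, at 10.50. The checkpoint genes Mad2l1, Bub1 and Bub1b were at 11.84, 11.47 and 10.56. The mitotic kinases Aurka, Plk1 and Aurkb were at 11.04, 10.41 and 9.89. Below the upper quartile were the phosphatase genes Cdc25c, at 8.10, and Cdc25b, at 6.84.

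All 8 genes of the p53 axis reached the upper quartile, with a median level of 9.84. Trp53, the gene of p53, was at 8.74. Its negative regulators Mdm2, a ubiquitin ligase, and Mdm4 were at 9.98 and 9.70. The p53 target Ccng1 was at 11.21 and its relative Ccng2 at 8.52. The kinases that signal DNA damage, Chek1 and Chek2, were at 10.32 and 9.05. Cdkn1a, which encodes p21, was at 10.14.

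What the genes share outside the arrays was examined in their promoters, with RefSeq sequences of build GRCm38.p6 running from 250 bases before to 50 bases after the start of the gene. A promoter was found for 39 of the 49 genes, 48 promoters in all. Both strands were searched for the E2F motif, taken as TTTCCCGC, TTTCGCGC, TTTGCCGC or TTTGGCGC, and for the cell cycle genes homology region (CHR), taken as TTTGAA or TTCGAA, the element through which the DREAM and MuvB complexes are known to control mitotic genes. TTCGAA is its own reverse complement and was counted once, and no searched motif lies within another. A match is only a run of letters, and no match says nothing of binding. The E2F motif was found in 22.9% of the promoters of these genes and in 2.26% of all 32851 promoters. By group, it was in 6 of the 14 promoters of the E2F and Rb genes, 3 of 14 of the G1 regulators, and 1 of 10 of both the mitotic genes and the p53 axis. Overlapping promoters of Tfdp1 share the same match and are counted apart. By gene, the E2F motif was in 5 of 10 E2F and Rb genes and in 25.6% of the 39 genes, against 2.6% of all genes with a promoter. The CHR motif was in 8 of the 10 promoters of mitotic genes, 4 of 14 of the E2F and Rb genes, 1 of 14 of the G1 regulators and 0 of 10 of the p53 axis, against 19.2% of all promoters. Over the 4 groups together it was in 27.1% of the 48 promoters. By gene, it was in 33.3% of the 39 genes, against 21.7% of all genes with a promoter.

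**Figure D2:**
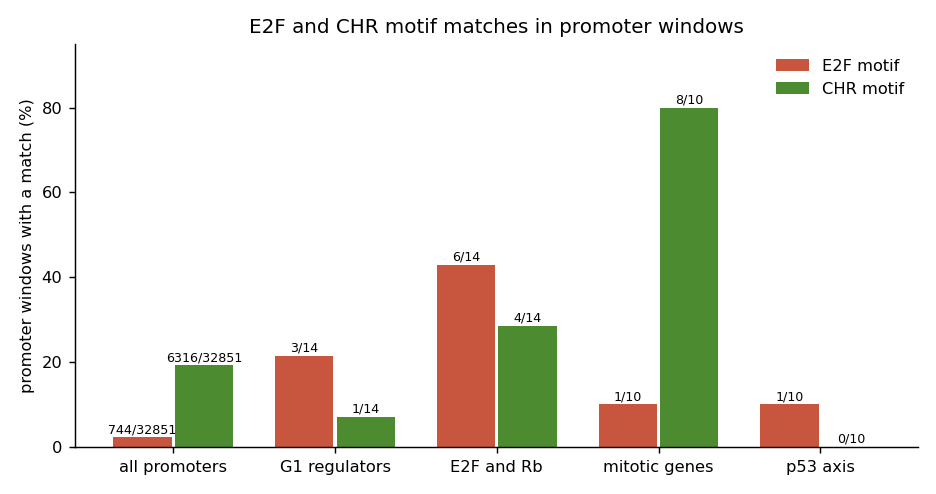
Share of promoter windows with a match to the E2F motif or to the CHR motif, in percent, for all promoters and for the 4 groups, with the number of promoters with a match over the number searched above each bar. E2F matches are most frequent in the E2F and Rb group (6 of 14) and CHR matches in the mitotic group (8 of 10). In the E2F and Rb group, overlapping promoters of Tfdp1 share the same match.

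The E2F matches upstream of the start are shown to let the sites and their flanks be compared, each as the strand of the gene from 5′ to 3′ in GRCm38.p6, with the match in capitals. In Chek2, Tfdp1, E2f7, Cdk2 and E2f3 the motif is on the other strand, so the capitals are its reverse complement. The windows are E2f7 at chr10:110745230-110745259, Rbl1 at chr2:157204535-157204564, E2f3 at chr13:29986064-29986093, Tfdp1 at chr8:13338697-13338726, Cdc25a at chr9:109875501-109875530, Cdk2 at chr10:128705173-128705202, Cdkn2a at chr4:89294700-89294729, Chek2 at chr5:110839820-110839849 and Cdk1 at chr10:69353025-69353054. E2f7, Tfdp1, Cdc25a and Chek2 lie on the plus strand, and the other genes shown lie on the minus strand. The match of E2f2 lies after the start and is not shown.
E2f7: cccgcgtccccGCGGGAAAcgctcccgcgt
Rbl1: caagaaggcgatTTTCGCGCgctttgtcgc
E2f3: aatatggtttgaaaagccgGCGGGAAAtct
Tfdp1: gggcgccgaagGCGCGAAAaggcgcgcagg
Cdc25a: ggtgaattccgTTTGGCGCcaactaggaaa
Cdk2: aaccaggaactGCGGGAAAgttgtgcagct
Cdkn2a: ctctgggaagcTTTCCCGCgcgactgggga
Chek2: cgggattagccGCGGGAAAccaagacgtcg
Cdk1: tttccgctcccTTTCGCGCtctgcgctccc

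For the CHR motif, windows of mitotic genes are shown beside those of E2f8 and Rbl2, again with the match in capitals and on the strand of the gene. In E2f8 and Rbl2 the motif is on the other strand. Only matches before the start are shown. Ccnb2 and Bub1b have a further match after it, at 5 and 41 bases from the start. Those of Bub1, Cdc25b, Aurka and Plk1 lie only after the start. Upstream matches of E2f2, E2f3 and Cdkn2b are not shown. Cdk1 has matches at -71 and at -15 bases from the start, and the nearer is shown, at chr10:69352913-69352942 (minus strand). The other windows are Cdc20 at chr4:118437344-118437373 (minus), Bub1b at chr2:118598011-118598040 (plus), Ccnb2 at chr9:70421704-70421733 (minus), E2f8 at chr7:48881599-48881628 (minus) and Rbl2 at chr8:91069844-91069873 (plus).
Cdk1: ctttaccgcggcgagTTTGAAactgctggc
Cdc20: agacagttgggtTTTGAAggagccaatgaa
Bub1b: tctctccctgggTTCGAAggcttgtcttag
Ccnb2: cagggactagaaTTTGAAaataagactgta
E2f8: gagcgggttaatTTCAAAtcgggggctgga
Rbl2: ggtctttttctcTTCAAAcgagccttctga

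The genotypes were then compared, which addresses the study's question of which genes differ between undifferentiated WT and Alkbh1-/- cells. Group means were analysed for 2790 genes, those of the class comparison whose entries could be matched to 1 probe set. The identifiers in that table do not stand beside their own values, so entries were assigned to probe sets by value, and by the identifiers as written 5 of the 9 genes below would have a ratio of the other sign (Bub1, Ccnd3, Ccne2, Cdkn1a and E2f7). That table holds only entries the authors' test had selected, and the smallest log2 ratio in size among the 2790 genes was 0.37, so a gene with a mean ratio nearer 0 is not among them. Group means were found for 9 of the 48 genes, at 12 of their 108 probe sets. Over all 15357 genes the share was 18.2%, close to that of these genes. For the other 39 genes, the difference between the genotypes was not analysed here. The 9 genes were Ccnd3, Ccne2, Cdkn2a and Rbl2, with a higher mean in Alkbh1-/- mESCs, and Ccne1, Cdk6, E2f7, Bub1 and Cdkn1a, with a lower one. The log2 ratios of the group means ran from -0.70 to 0.58.

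Past a linear fold of 1.5, a log2 ratio of 0.585 in size, 3 of the 9 genes were lower in Alkbh1-/- mESCs (Cdkn1a, Bub1 and E2f7) and 0 were higher. Among all 2790 genes with group means, 29.9% were lower by this fold and 29.8% were higher. With 9 genes and no error for any of them, the counts are a description. E2f7 only just passes that fold at 0.666 times the WT mean, and Cdkn2a just falls short of it at 1.496 times the WT mean.

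**Figure D3:**
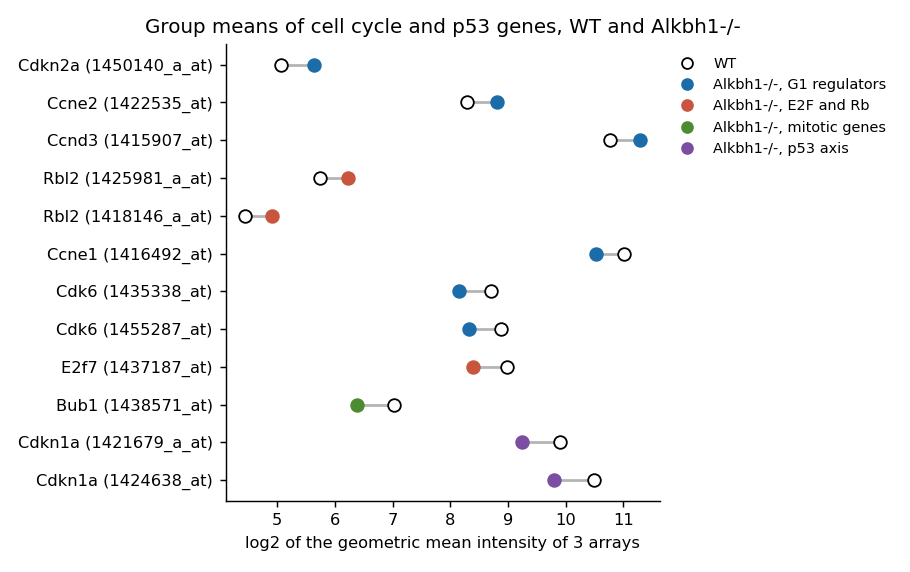
The authors' group means of the 12 probe sets, as log2 of the geometric mean intensity, with WT as open points and Alkbh1-/- as filled points coloured by group; no error bars are drawn, since the group means carry no error. The shifts span about the same size in both directions, from -0.70 for Cdkn1a to 0.58 for Cdkn2a, and probe sets of the same gene shift the same way.

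Cdkn1a had the lowest ratio of these genes. At 1424638_at, the authors' geometric mean intensity was 1441 in WT and 889 in Alkbh1-/- mESCs, or 0.617 times the WT mean (log2 ratio -0.70). At its other probe set, 1421679_a_at, the means were 963 and 604 (log2 ratio -0.67). Both probe sets of the p21 gene were thus lower by over 1.5-fold, while by the identifiers as written the log2 ratio of Cdkn1a would be 0.43. For the other 7 genes of the p53 axis, Trp53, Mdm2, Mdm4, Ccng1, Ccng2, Chek1 and Chek2, no group means were analysed.

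Other targets of p53 were set beside Cdkn1a from a list of 22 genes. A row was found for 21, and group means for 5, all of them higher in Alkbh1-/- mESCs. Of all genes, 18.2% had group means, and of these 2790, 1399 were higher and 1391 lower. The largest ratio of these was that of Pmaip1, which encodes the cell death protein NOXA, with means of 1625 in WT and 3182 in Alkbh1-/- mESCs (log2 ratio 0.97). Eda2r had means of 318 and 590 (log2 ratio 0.89). Perp, Trp53inp1 and Aen had log2 ratios of 0.57, 0.53 and 0.48. The value of Trp53inp1 is that of a dim probe set with a level of 6.15, and its brightest, at 11.71, has no group means. Cdkn1a therefore stood on the other side of 0 from the 5 listed targets, of which 2 were past 1.5-fold. This contrast rests on the match by value, since by the identifiers as written the log2 ratio of Cdkn1a would be 0.43. The 5 targets were not examined by those identifiers. The comparison rests on the genes that have group means, and for 16 targets with a row, among them Bax, Bbc3, Gadd45a, Sesn2, Zmat3 and Btg2, none were analysed.

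The G1 regulators with group means differed in direction, the pair of cyclin E genes included. The gene of cyclin E1, Ccne1, had means of 2068 in WT and 1485 in Alkbh1-/- mESCs at 1416492_at (log2 ratio -0.48). Ccne2, the gene of cyclin E2, had means of 313 and 452 at 1422535_at (log2 ratio 0.53). The cyclin E genes thus had ratios of opposite sign by the match by value. By the identifiers as written both would be lower, with log2 ratios of -0.54 for Ccne1 and -0.67 for Ccne2. Neither gene was matched at a stricter tolerance. A brighter row, 1435250_at with a level of 9.27, carries the symbol Ccne2 but the gene identifier of Ints8, and it has no group means here. A further probe set of Ccne1, 1441910_x_at at 10.74, has none either.

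Ccnd3, the gene of cyclin D3, had means of 1746 in WT and 2515 in Alkbh1-/- mESCs at 1415907_at, 1.44 times the WT mean (log2 ratio 0.53). Cdk6, whose product pairs with D-type cyclins, was lower at both of its bright probe sets. The means were 471 and 321 at 1455287_at (log2 ratio -0.55) and 418 and 286 at 1435338_at (log2 ratio -0.55). For Ccnd1, Ccnd2, Cdk4 and Cdk2, no group means were analysed. Cdkn2a had means of 33.3 in WT and 49.9 in Alkbh1-/- mESCs (log2 ratio 0.58). On the log2 scale these are 5.06 and 5.64, between the lower quartile of all probe sets (4.80) and their median (6.31). At such levels a fold depends on how the array reads a dim signal.

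In the E2F and Rb group, E2f7 and Rbl2 had group means. E2f7, a repressor that itself carries an upstream E2F match, had means of 505 in WT and 336 in Alkbh1-/- mESCs at its single probe set, 1437187_at (log2 ratio -0.59). A probe set of E2f3, 1434564_at, lies right beside it, at a level of 8.68656 against 8.68655. The assignment of this entry to E2f7 therefore rests on the tight tolerance of the match by value. Rbl2, the gene of the Rb relative p130, had means of 53.6 and 74.9 at 1425981_a_at (log2 ratio 0.48) and of 21.8 and 30.1 at 1418146_a_at (log2 ratio 0.47). The ratios at these probe sets of Rbl2 were alike, at low levels. The remaining 11 genes of the group, all other E2F genes and Rb1 among them, were without group means.

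Of the 13 mitotic genes, Bub1 had group means. Bub1 encodes a kinase of the spindle checkpoint, and its dimmer probe set, 1438571_at, had means of 131 in WT and 83.4 in Alkbh1-/- mESCs (log2 ratio -0.65). The brighter probe set of the gene, 1424046_at, with a level of 11.47, has no group means here, so the lower value rests on the dim probe set alone. From a list of 22 other mitotic genes, all with a row, 2 had group means. Mybl2, which encodes B-Myb, a partner of the MuvB complex, had log2 ratios of 0.53 and 0.59 at its pair of probe sets. Pttg1, the securin gene, had a log2 ratio of 0.60 at 1419620_at, a dim probe set with a level of 7.05, while its brightest is at 12.27. From a list of 20 genes of replication and S phase, all with a row and with a median level of 11.23, 0 had group means. Both shares are to be read against the 18.2% of all genes with group means.

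**Figure D4:**
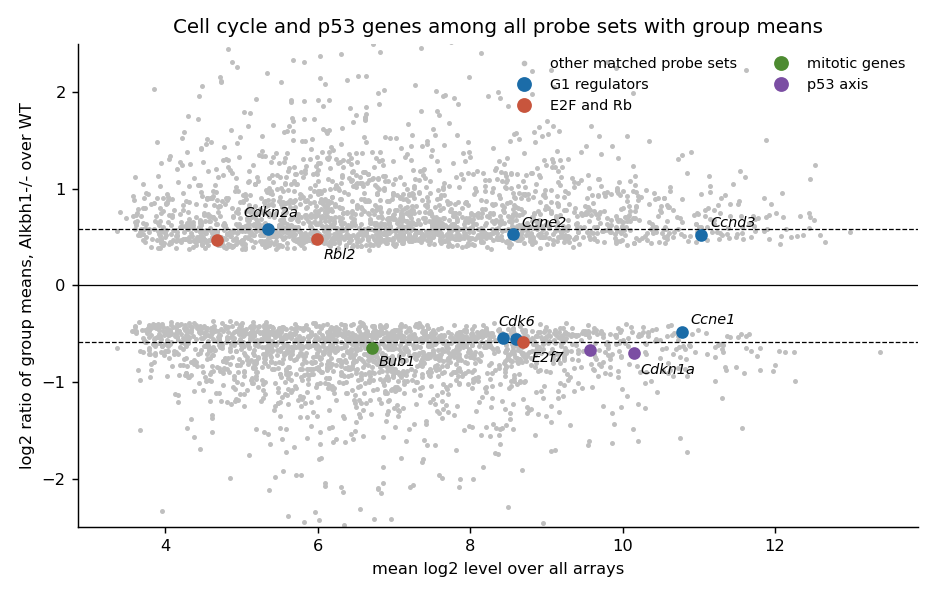
Log2 ratio of the group means (Alkbh1-/- over WT) against the mean log2 level over all arrays, for every probe set with group means; dashed lines mark 1.5-fold, and 49 probe sets beyond 2.5 in size lie outside the plotted range. The coloured points are the 12 probe sets of the cell cycle and p53 genes, which reach 0.70 in size at most, while the list of genes with group means has a median size of 0.64.

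Feeder cells were part of the cultures, so fibroblast genes were set beside these values. Of 15 fibroblast genes, 7 had group means and all 7 were lower in Alkbh1-/- mESCs, with log2 ratios from -1.06 to -0.41 and a median of -0.88, where 18.2% of all genes had group means and 1391 of these 2790 were lower. The collagen genes Col1a1, Col1a2, Col3a1 and Col5a2 were at -1.06, -1.06, -0.88 and -0.99. The value of Col1a2 is that of a probe set at a level of 9.46, and its brightest, at 11.82, has no group means. Ccn2, Thy1 and Ccn1 were at -0.68, -0.52 and -0.41, the last at a probe set that is also not its brightest. Fn1, Vim and Thbs1 have bright probe sets, at 12.06, 11.78 and 12.09, without group means. Pluripotency genes with group means, 4 of 8, were all higher, with log2 ratios of 1.10 for Nanog, 0.67 for Klf4, 0.55 for Esrrb and 0.41 for Zfp42. Cdkn1a, Bub1, E2f7, Cdk6 and Ccne1 had ratios from -0.70 to -0.48, on the side of the 7 fibroblast genes and within their range. Rbl2, Ccnd3, Ccne2 and Cdkn2a had ratios from 0.48 to 0.58, likewise within the range of the 4 pluripotency genes. Both ranges are wide, since over all 2790 genes the 5th percentile of size was 0.43 and the median 0.64. A gene with a size near that median falls within 1 of them by its sign alone. The part of feeder RNA in the values of these cell cycle genes was not tested. In bulk RNA, fewer cells of a type and less RNA per cell cannot be told apart.

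**Figure D5:**
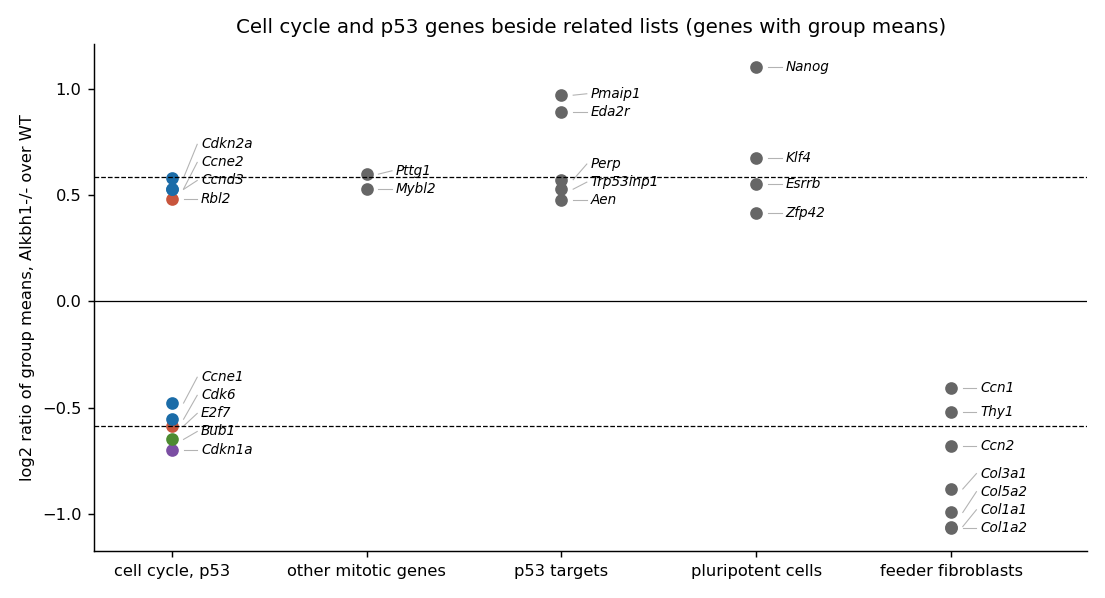
Log2 ratio of the group means (Alkbh1-/- over WT) for each gene with group means, by list; a gene is given by its brightest entry, and dashed lines mark 1.5-fold. The 9 cell cycle and p53 genes fall on both sides of 0, the 5 p53 targets and 4 pluripotency genes lie above 0, and the 7 fibroblast genes lie below it.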

How the data were processed

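Total RNA was hybridized to Affymetrix mouse genome arrays, 3 per genotype, and the authors ran robust microarray analysis (RMA) on all of them at once. The larger deposited table gives the mean log2 level of each of 33142 probe sets over all 6 arrays. It also holds log2 differences, moderated statistics, p-values and log-odds of the authors' comparison, which were not used. A class comparison, run by a service company, gives the deposited geometric mean intensity of each genotype, beside p-values and folds that were not used. Its header sets a nominal p under 0.05 for an entry. The class named C1 holds the WT arrays, as the deposited description states.

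In the class comparison, identifiers do not stand beside their own values. Entries were therefore matched to the larger table by value: the mean of the log2 group means had to lie within 1e-06 of the level of exactly 1 probe set. This held for 4232 of 4326 entries, of which 8 carried the identifier of that probe set. Among 708 genes with several matched entries, 705 (99.6%) had ratios of the same sign at all of them, against 292 of 714 (40.9%) by the identifiers as written. The tolerance was set with the values in view. The join was run on simulated data in which the mean of the log2 group means equals the level by construction. Such data can count chance matches but cannot show that the relation holds for the real entries. Probe sets were named by gene identifier, accession and symbol through the RefSeq genes of GRCm38.p6 (85.1% named). A row stayed with a gene of the list where its own symbol named it.

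The planned limma fit could not be made with group means alone, so no test was run. Precision is limited by the number of arrays. The genes named are the listed regulators, Alkbh1, genes of related lists with group means, and some without for their levels. The regulators and lists were chosen with earlier results of these data known. Python 3.11.15, pandas 2.3.3, NumPy 2.4.6 and matplotlib 3.10.9 were used.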

Additional observations from a re-analysis of the deposited data

How the results depend on the processing

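The median level of the 48 genes lay 3.49 above the median of all probe sets on the log2 scale. With the mean of all probe sets of a gene it lay 1.90 above, without probe sets of suffix x, s or a 3.36 above, and against the median over genes 2.49 above. Leaving out rows with another gene identifier, an alternative chosen after seeing the data, left it at 3.49. The count of genes past 1.5-fold, 0 higher and 3 lower, became 4 and 5 at 1.2-fold, and 0 and 0 at 2-fold. All 2790 genes with group means are past 1.2-fold, since their smallest log2 ratio was 0.37 in size. The 4 and 5 thus only repeat the signs of the 9 genes. Centring on the median of all entries (0.42) gave 0 and 5 and left the 4 higher genes at 0.07 to 0.16. It lowers every ratio alike, and since small ratios were not in the table, the median lies at the inner edge of the higher ones, so this alternative says nothing about stability. A looser tolerance left 8 of the 9 genes and dropped E2f7, whose level then matched several probe sets (0 higher and 2 lower). A probe set of E2f3 has nearly the same level as that of E2f7. A stricter tolerance left 7 genes, without Ccne1 and Ccne2, with 0 higher and 3 lower. By the identifiers as written, 1 was higher and 2 were lower, the same 9 genes had an entry, and 5 log2 ratios turned sign: Bub1 0.45, Ccnd3 -0.63, Ccne2 -0.67, Cdkn1a 0.43 and E2f7 0.45. No other alternative run turned the sign of any of the 9 genes, which says little about stability. A changed tolerance keeps the entry of a gene or drops it. The mean over matched entries differs only for genes with several entries, and these had the same sign at each. Leaving out arrays was not run, since array-by-array values were not analysed. No paired analysis was possible because the columns carry no replicate numbers.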
